A study of Mus musculus with 16 samples.

Results

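The miRNAs of the imprinted Dlk1-Dio3 domain on mouse chromosome 12 were followed through mast cell culture. The members were all miRNAs on the array whose probes are annotated between positions 110600000 and 111100000 of chromosome 12 (mouse build mm9, as the array grid gives it). This gave 73 miRNAs, read by 212 probes, of 577 miRNAs on the array, of which 567 are from mouse and 10 from viruses. The members lie on the plus strand between positions 110801929 and 110981994 and come from 49 hairpins, 24 of which have both arms on the array. By place in the locus, 10 members lie at the Meg3 end, 10 lie antisense to Rtl1, 3 lie between Rtl1 and Mirg, and 50 lie in the Mirg cluster.

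Small RNA was measured on 16 one-colour arrays, 4 for each of 4 groups of bone marrow cells from Balb/c mice, grown with SCF (20 ng/ml) and IL-3 (5 ng/ml). The progenitor group holds c-kit-positive cells taken on day 6 of culture by magnetic separation. BMMC are bone marrow-derived mast cells after 4 weeks of culture. MMC are mast cells brought towards a mucosal type by IL-9 and TGF-beta for 5 days. IgE_BMMC are mast cells that had bound an IgE against the hapten DNP and were then given DNP antigen for 2 hours, the stimulus that crosslinks IgE receptors and triggers release of granules. The comparisons ask how the cluster stands when progenitors become mast cells, when mast cells take a mucosal type and when they are activated. The cells were grown outside the animal. The labels call the 4 samples of a group biological replicates without naming their animals or cultures. The p-values therefore rest on the spread among these samples, and part of that spread may be technical.

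In this domain the protein-coding genes Dlk1, Rtl1 and Dio3 are expressed from the chromosome inherited from the father, and the non-coding RNAs Meg3, anti-Rtl1, Rian and Mirg, which host the miRNAs, from the one inherited from the mother. The miRNAs are known for high levels in brain, embryo, placenta and pluripotent cells, and the maternal transcripts are also known to be active in haematopoietic stem cells. The miRNAs that lie antisense to Rtl1, such as miR-127, pair fully with its mRNA, and miR-770 lies within Meg3.

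The mature sequences of the members detected most steadily are shown with the dark partner arm of miR-770-3p, because they give the seeds (bases 2 to 8, in capitals) by which each would pair with its targets. They are from RefSeq on build GRCm38.p6, which paired with 66 of the 73 members; miR-487b, also detected steadily, is named only.
miR-770-5p: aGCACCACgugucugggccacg
miR-770-3p: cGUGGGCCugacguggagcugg
miR-370: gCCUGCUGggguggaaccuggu
miR-494: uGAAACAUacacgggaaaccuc
miR-667: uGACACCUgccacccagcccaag
miR-134: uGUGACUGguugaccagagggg
None of the seeds of miR-770-3p, miR-370, miR-494, miR-667 and miR-134 occurs in another of the 66 members. Among those 66 a shared seed occurs in 1 pair, miR-376c* and miR-376b*.

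Most of the cluster was dark. By the extraction software's own call, 57 of the 73 members were detected on none of the 16 arrays and 16 on at least 1 array. Without progenitor replicate 4, whose noise is described below, the number detected on at least 1 array was 9. On at least 3 arrays of a group, 6 members were detected: miR-770-3p, miR-370, miR-494, miR-667, miR-487b and miR-134. These are 8.22% of the cluster, while 48.0% of the 494 mouse miRNAs outside the window reached the same mark.

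The share was low in every group. In progenitors 3 members (4.11%) were detected on at least 3 arrays, against 37.9% of the other mouse miRNAs. In BMMC 6 members (8.22%) were, against 45.5%. In MMC and in IgE_BMMC it was 4 members each (5.48%), against 39.7% and 34.0%. MiR-370, miR-494 and miR-134 were detected on at least 3 arrays in each of the 4 groups, and miR-770-3p in each but the progenitors, where it was detected on 2 arrays.

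The steadily detected members lay among members that were dark or seen on few arrays. At the Meg3 end, miR-770-3p (chr12:110801963-110801975 in mm9) was detected on 13 of the 16 arrays, while miR-770-5p, 22 bases before it on the same hairpin, was detected on 0. Of the 10 members antisense to Rtl1, only miR-433* was detected, and only on progenitor replicate 4. MiR-370 (chr12:110856522-110856536) was detected on all 16 arrays, between miR-341 at 6736 bases and miR-882 at 63883 bases, both detected on 0.

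In the Mirg cluster 12 of the 50 members were detected on at least 1 array, and 7 without progenitor replicate 4. MiR-494 (chr12:110953584-110953598) was detected on all 16 arrays, while miR-679, only 204 bases further on, was detected on 0 and miR-329, 1812 bases before it, on 1. MiR-487b (chr12:110965596-110965613) was detected on all 4 BMMC arrays and 1 progenitor array, and its neighbours miR-381 and miR-539 on 0. MiR-134 (chr12:110972364-110972376) was detected on 15 arrays, miR-382*, 314 bases before it, on 0, and miR-668, 619 bases after it, on 2. No hairpin had both arms detected once progenitor replicate 4 was left out.

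The remaining members were seen on few arrays. MiR-667 was detected on 4 BMMC, 2 MMC and 1 progenitor array, and on 0 IgE_BMMC arrays. MiR-668 was detected on 1 progenitor and 1 BMMC array, miR-666-5p on 2 BMMC arrays and miR-300 on 1 BMMC array. The other 7, namely miR-540-5p, miR-433*, miR-299*, miR-329, miR-654-3p, miR-485* and miR-154, were detected on progenitor replicate 4 alone.

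**Figure D1:**
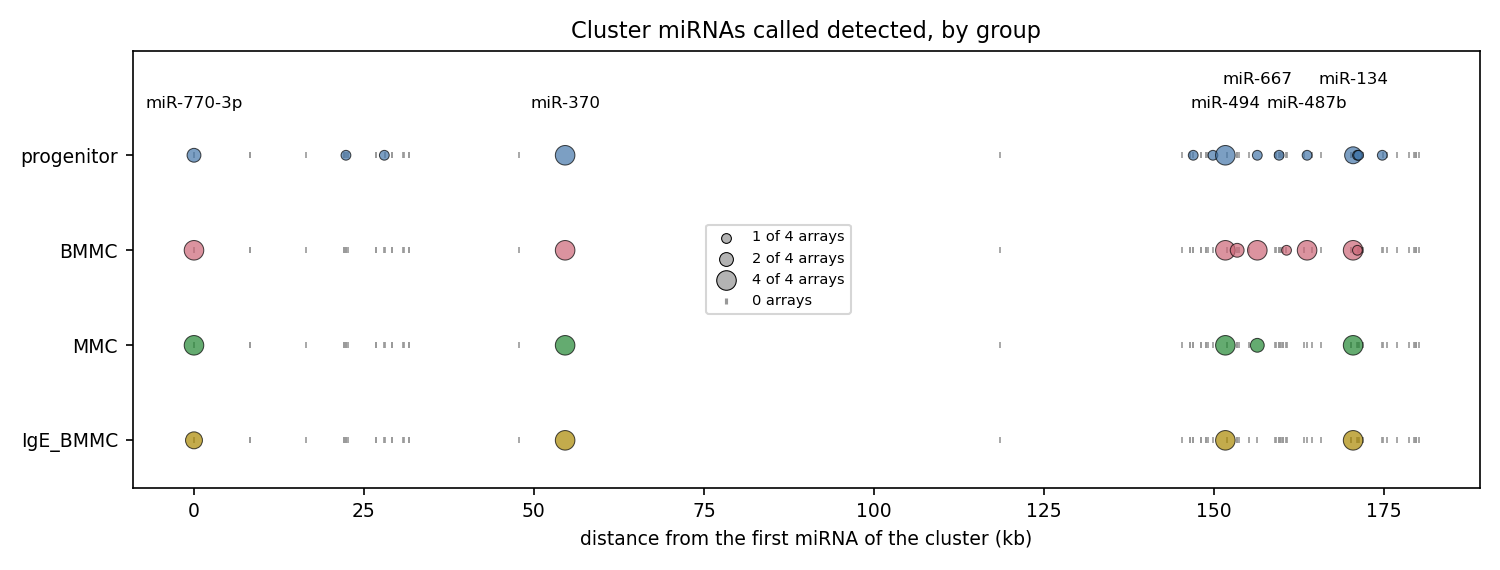
Cluster members called detected in each group, placed by distance in kilobases from the first member; the area of a circle gives the number of the 4 arrays on which the member was detected, and a grey tick marks a member detected on 0 arrays. The circles present in all 4 rows are miR-770-3p, miR-370, miR-494 and miR-134, and most single-array circles sit in the progenitor row.

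Outside the window, the nearest hairpin before the cluster on the array is miR-345, at positions 110075203 to 110075258; its 3p arm, the nearer, was detected on 0 arrays and its 5p arm on all 4 arrays of every group. The nearest miRNA after the cluster, miR-203*, starts at position 113369101 and was detected on 0. The first and last members inside it, miR-770-5p and miR-410, were detected on 0 arrays.

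The arrays differed in brightness, and the brightest group, BMMC, also had the most miRNAs detected. The 75th percentile of the signal of 205 probes, those marked well above background on all arrays, was 342 to 440 intensity units on the progenitor arrays, 1299 to 1759 in BMMC, 717 to 863 in MMC and 311 to 419 in IgE_BMMC. All mouse miRNAs detected per array numbered 175 to 210, 224 to 255, 195 to 209 and 169 to 178 in the same order. On progenitor replicate 4 the standard deviation of the negative controls was 5.53 units, against 1.75 to 2.14 on the other 15 arrays. On that array 33 mouse miRNAs, 9 of them members, were detected that were on no other progenitor array. The haematopoietic markers miR-142-3p, miR-142-5p and miR-223 were detected on at least 3 arrays in every group, 3 of 3. Of 6 stromal markers on the array 2 were in each group except IgE_BMMC, with 1, and miR-143, miR-145, miR-199a-5p and miR-214 were detected on 0 arrays. Of 5 neuronal markers 1 to 2 were, with miR-9, miR-124 and miR-137 on 0 arrays, and the lymphoid markers were present 3 of 3 in every group. Of 3 erythroid markers 2 were in progenitors, 1 each in BMMC and MMC and 0 in IgE_BMMC.

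The number of members detected per array was 4, 4, 4 and 11 in progenitors, 7, 8, 7 and 6 in BMMC, 5, 4, 4 and 5 in MMC and 4, 4, 3 and 4 in IgE_BMMC. BMMC arrays were above all MMC and IgE_BMMC arrays. The mean in MMC was lower than in BMMC by 2.5 members (4.5 ± 0.577 against 7 ± 0.816, SD, n = 4 each), with an exact two-sided permutation p of 0.0286 and an adjusted p of 0.0571 over the 4 comparisons. IgE_BMMC, at 3.75 ± 0.5 members (SD, n = 4), was 3.25 below BMMC with the same exact p and adjusted p. A p of 0.0286 is the smallest that 70 arrangements of 4 against 4 arrays can give, and neither difference passed after adjustment. For BMMC against progenitors the difference was 1.25 (exact p = 0.657, adjusted p = 0.657), and 3 without progenitor replicate 4. For IgE_BMMC against progenitors it was -2 (exact p = 0.571, adjusted p = 0.657), and -0.25 without that array. All mouse miRNAs detected per array moved the same way, by 43 for BMMC against progenitors and by -37.25 and -65.5 for MMC and IgE_BMMC against BMMC (exact permutation p = 0.0286, adjusted p = 0.0381 each). For MMC and IgE_BMMC against BMMC this is the same exact p as for the members. The adjusted p differs only because more of the 4 comparisons reached the smallest p. The part of array brightness in the members' counts was not tested.

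The fit of levels took in 5 members, those that were clearly lit (marked well above background) on 3 or more of a group's arrays: miR-494, miR-370, miR-134, miR-770-3p and miR-487b. The other 68 members did not pass that filter. Signals were scaled between arrays by the 75th percentile given above, raised to a floor of 11.8 units and put on the log2 scale, and differences come from a limma fit over 217 miRNAs, with Benjamini-Hochberg adjusted p-values and a threshold of 0.05. MiR-487b passed the filter through BMMC alone and lay at or next to the floor in every group. Its levels could therefore not be compared, and it could not be called in the main setting. It is still counted among the 5 members in the shares and medians below. Levels of different miRNAs are not set against each other, since each probe has its own affinity.

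MiR-494 had deposited signals of 1166, 331, 393 and 621 units in progenitors and 3456, 4971, 3423 and 3231 in BMMC. On the MMC arrays they were 2851, 2382, 1945 and 3023, and on the IgE_BMMC arrays 407, 431.4, 331 and 407. It was well above background on all 16 arrays, and its deposited signals in BMMC and MMC were all above those of the other groups. After scaling, its mean log2 level (± SD, n = 4 each) was lowest in IgE_BMMC at 9.39 ± 0.068, followed by progenitors at 9.86 ± 0.65, BMMC at 10.60 ± 0.20 and MMC at 11.04 ± 0.24; progenitors overlapped each of their neighbours in this order, as did BMMC and MMC.

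MiR-370 had deposited signals of 61.1, 32.2, 36.6 and 71.5 units in progenitors, 58.4, 77.3, 50.8 and 51.3 in BMMC, 64.3, 50.3, 47.2 and 73.0 in MMC, and 11.6, 9.42, 8.42 and 12.4 in IgE_BMMC. The first 3 groups overlapped as deposited, and IgE_BMMC lay below all of them. After scaling, the signals were 91.5, 59.7, 69.9 and 106.1 units in progenitors, 22.9, 28.7, 20.9 and 25.8 in BMMC, 48.7, 45.9, 40.9 and 60.7 in MMC, and 18.0, 15.2, 17.7 and 19.9 in IgE_BMMC. In scaled units no group overlapped its neighbour, except that the lowest progenitor array (59.7) lay under the highest MMC array (60.7).

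MiR-134, which in rat neurons limits the size of dendritic spines through Limk1, had scaled signals of 20.1, 18.6, 24.6 and 5.51 units in progenitors, 20.2, 27.4, 21.3 and 20.5 in BMMC, 48.5, 30.3, 26.5 and 37.1 in MMC, and 22.9, 17.7, 14.4 and 13.5 in IgE_BMMC. The lowest of these, 5.51, is progenitor replicate 4, and each group overlapped BMMC. MiR-770-3p had scaled signals of 13.7, 8.93, 23.6 and -3.64 units in progenitors, 15.5, 16.7, 14.9 and 16.6 in BMMC, 26.1, 24.7, 23.7 and 28.8 in MMC, and 10.2, 12.03, 9.35 and 13.2 in IgE_BMMC. It was well above background on all BMMC and MMC arrays, on 1 progenitor array and on no IgE_BMMC array.

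MiR-487b had deposited signals of 11.2, 12.8, 11.6 and 13.0 units in BMMC, against 3.54 to 6.40 in progenitors, 4.62 to 6.30 in MMC and 2.38 to 3.81 in IgE_BMMC. It was well above background on the 4 BMMC arrays and on no other array. After scaling, the BMMC arrays were at 4.37 to 6.51 units, under the floor of 11.8. The scaled signals were 6.74 to 11.9 units in progenitors, 3.83 to 5.07 in MMC and 3.72 to 7.07 in IgE_BMMC. These scaled signals give no order of the groups. Those of progenitors, MMC and IgE_BMMC were not well above background, and those of BMMC lay under the floor. The log2 differences of miR-487b were 0 or near 0, and no fold can be given. MiR-667, outside the fit, was at 6.11 to 15.8 deposited units in BMMC, 4.94 to 16.9 in MMC, 0.679 to 2.08 in IgE_BMMC and 1.41 to 19.5 in progenitors, where the highest value is progenitor replicate 4.

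**Figure D2:**
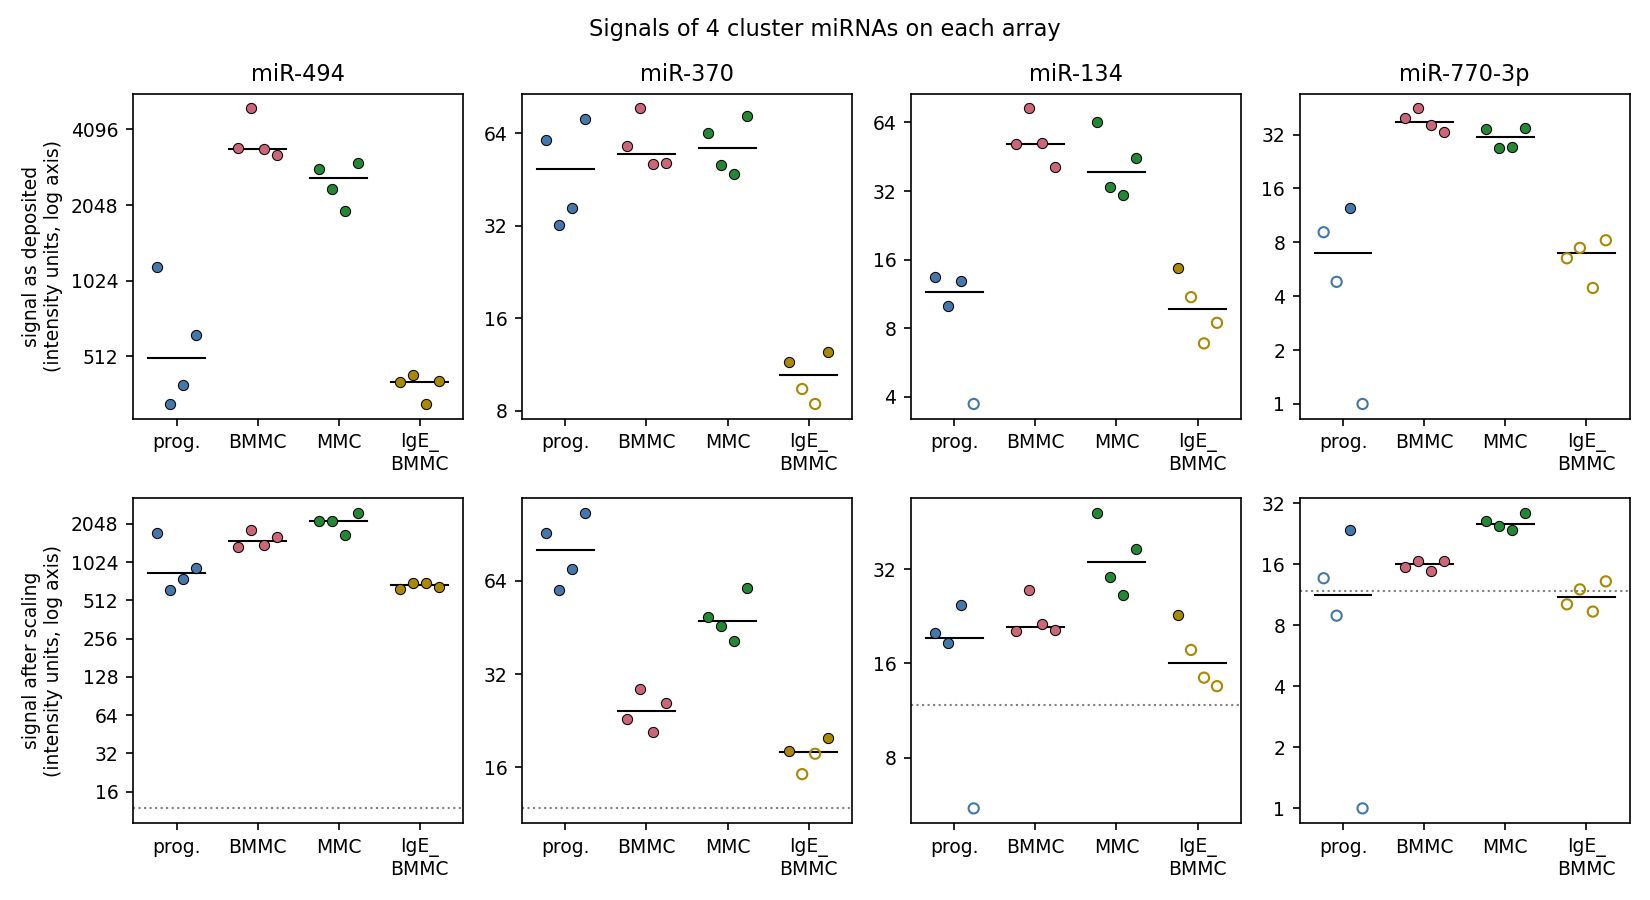
Signal of miR-494, miR-370, miR-134 and miR-770-3p on each array, as deposited (top) and after scaling between arrays (bottom), in intensity units on log axes; filled points are well above background, open points are not, bars are group medians, values under 1 are drawn at 1 and the dotted line is the floor of 11.8. Deposited miR-370 signals of progenitors, BMMC and MMC overlap, while the scaled ones of progenitors and BMMC do not.

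From progenitors to BMMC, miR-370 fell and miR-494 rose. MiR-370 was 3.27-fold lower in BMMC (log2 difference -1.71, SE 0.18, limma adjusted p = 1.04e-06), and the groups did not overlap. In such bulk RNA, fewer cells that carry a miRNA and less of it per cell cannot be told apart. MiR-494 was 1.67-fold higher (log2 difference 0.74, SE 0.25, limma adjusted p = 0.0188), and its groups overlapped at progenitor replicate 1, which lay at 1747 scaled units within the BMMC range. MiR-134 (0.29, SE 0.24, limma adjusted p = 0.307) and miR-770-3p (0.13, SE 0.17, limma adjusted p = 0.543) did not pass in the main setting. Each passed as higher with 5 of 12 other settings, with log2 differences of up to 2.22 for miR-134 and of 0.65 to 2.55 for miR-770-3p. With normexp background correction they lay on the other side of 0 (-0.56 and -0.47). That setting adds 50 units to every spot before scaling. The highest deposited signals of the probes used were 73.9 units for miR-134 and 44.9 for miR-770-3p. The part of this offset was not tested. Of the 5 members 2 were called, 1 in each direction, while 66.4% of all 217 miRNAs tested were called, 21.2% higher and 45.2% lower. The groups did not overlap for 1 of the 5 members, against 56.7% of all tested. The median log2 difference was 0.13 over the 5 members and -0.30 over all tested miRNAs.

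The fall of miR-370 depends on the scaling: its log2 difference was 0.30 with no scaling and -0.16 (limma adjusted p = 0.501) with the 75th percentile taken over all probes. The call of miR-494 was lost without progenitor replicate 2, progenitor replicate 3 or BMMC replicate 2 (log2 difference 0.54 to 0.65, limma adjusted p = 0.0539 to 0.0617), with the mean of all probes (0.43, limma adjusted p = 0.203) and with no filter on dim probes (limma adjusted p = 0.055); its value was 2.28 with the percentile of all probes, 1.20 on slide 1 and 0.27 on slide 2. Of 3 erythroid markers the summed scaled signal was 127.8 to 254.3 units in progenitors and 9.39 to 14.6 in BMMC. That of the 3 haematopoietic markers was 19750 to 22490 and 7242 to 8628, with miR-223 at a log2 difference of -4.11 (SE 0.20, limma adjusted p = 5.82e-10), and that of the 3 lymphoid markers 205.7 to 307.5 and 121.8 to 154.0. The part of these lists in the lower miR-370 of BMMC was not tested.

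Between BMMC and MMC, miR-370 and miR-770-3p rose. MiR-370 was 1.99-fold higher in MMC (log2 difference 0.99, SE 0.18, limma adjusted p = 0.00129), and miR-770-3p 1.62-fold higher (0.70, SE 0.17, limma adjusted p = 0.00968). For both, every MMC array was above every BMMC array. MiR-134 (0.64, SE 0.24, limma adjusted p = 0.0738) and miR-494 (0.45, SE 0.25, limma adjusted p = 0.229) did not pass. Of the 5 members 2 were called, both higher, against 20.8% of 207 miRNAs tested, 16.9% higher and 3.86% lower. The groups did not overlap for 2 of the 5 members, against 34.3% of all tested. The median log2 difference was 0.64 over the 5 members and 0.015 over all tested.

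Both calls were lost when the 75th percentile was taken over all probes (miR-370 0.62, limma adjusted p = 0.0675; miR-770-3p 0.33, limma adjusted p = 0.0773). With no scaling the difference was -0.018 for miR-370 and -0.31 for miR-770-3p (limma adjusted p = 0.0319, lower), and the miR-770-3p call was lost with 4 further settings, given in the closing part.

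After IgE and antigen, miR-494 fell. It was 2.31-fold lower in IgE_BMMC than in BMMC (log2 difference -1.21, SE 0.25, limma adjusted p = 0.00282), at 634, 697, 697 and 653 scaled units against 1356, 1846, 1408 and 1624. Every IgE_BMMC array lay below every BMMC array. The difference was -1.38 on slide 1 and -1.03 on slide 2. The IgE_BMMC arrays were also dimmer as a whole, with scale factors of 0.476 to 0.642 against 1.99 to 2.69 and bright corner control spots at 246 to 580 units against 1155 to 1528, and the part of this in the lower miR-494 was not tested. MiR-370 (-0.47, SE 0.18, limma adjusted p = 0.0635), miR-134 (-0.41, SE 0.24, limma adjusted p = 0.299) and miR-770-3p (-0.38, SE 0.17, limma adjusted p = 0.132) did not pass. Since miR-770-3p was not well above background on any IgE_BMMC array, its fold in scaled signal has only a bound, 1.104-fold or more higher in BMMC. The BMMC mean was set, array by array, against the higher of the probe's own signal and the lowest signal among probes well above background. This bound carries no error and depends on the scaling. The fitted difference did not pass (limma adjusted p = 0.132) and lay on the other side of 0 with normexp background correction (0.37).

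Of the 5 members 1 was called, lower, against 25.6% of 207 miRNAs tested, 18.4% higher and 7.25% lower. The groups did not overlap for 3 of the 5 members, against 28.5% of all tested. The median log2 difference was -0.41 over the 5 members and 0.0060 over all tested. The miR-494 call held its direction and its side of the threshold in all 28 alternatives run, with log2 differences of -3.24 to -1.12. Not all of these can change the difference, as given in the closing part. The miR-370 difference was on the other side of 0 with normexp background correction (0.46, limma adjusted p = 0.000103). It passed as a fall with 6 other settings and without progenitor replicate 2 or 4.

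The scale factors of the IgE_BMMC arrays (0.476 to 0.642) and the progenitor arrays (0.524 to 0.674) overlapped. Their bright corner control spots did not, at 246 to 580 units in IgE_BMMC against 1240 to 1602 in progenitors. The part of this in the differences between these groups was not tested. This comparison shares the IgE_BMMC arrays with the comparison against BMMC and the progenitor arrays with the first. MiR-370 was 4.52-fold lower in IgE_BMMC than in progenitors (log2 difference -2.18, SE 0.18, limma adjusted p = 6.69e-08), and no arrays overlapped, as deposited or scaled. It held its direction and its call in all 28 alternatives run, from -2.32 to -0.68. Not all of these alternatives can change the difference, as given in the closing part. MiR-494 (-0.47, SE 0.25, limma adjusted p = 0.0971) and miR-134 (-0.11, SE 0.24, limma adjusted p = 0.669) did not pass. Of the 3 members tested 1 was called, lower, against 79.5% of 176 miRNAs tested, 28.4% higher and 51.1% lower, and the groups did not overlap for that 1 member, against 68.8% of all tested. The median log2 difference was -0.47 over the 3 members and -0.39 over all tested. In IgE_BMMC the summed scaled signal was 9.98 to 11.5 units for the erythroid, 10050 to 13040 for the haematopoietic and 119.7 to 148.3 for the lymphoid markers, and their part in this result was not tested.

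Each of these members is read by 2 or 4 probes that span different lengths of its 3′ end, which allows a check within a miRNA. MiR-770-3p shows it most plainly; the stretch that each probe spans is in capitals, from the 10-base to the 13-base probe.
miR-770-3p, 10 bases: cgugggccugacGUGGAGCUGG
miR-770-3p, 11 bases: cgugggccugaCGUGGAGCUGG
miR-770-3p, 12 bases: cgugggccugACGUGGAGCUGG
miR-770-3p, 13 bases: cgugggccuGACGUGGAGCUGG
The probes of 10 and 11 bases were well above background on 0 of the 16 arrays, with means of 2.19 and 3.58 units in BMMC. The probes of 12 and 13 bases were well above background on all 4 BMMC and all 4 MMC arrays, with means of 41.1 and 38.4 units in BMMC. The 10-base stretch also occurs in 1 other mouse mature miRNA of RefSeq, miR-7087-5p, and the 13-base stretch in none.

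For miR-134 the probes of 10, 11, 12 and 13 bases were all well above background on every BMMC and MMC array, with BMMC means of 50.5, 54.5, 53.7 and 52.8 units. The 2 probes of miR-370, of 14 and 15 bases, gave log2 differences of -1.75 and -1.71 for BMMC against progenitors and of -2.32 and -2.18 for IgE_BMMC against progenitors. For miR-494 they differed: its 14-base probe, used above, gave 0.74 for BMMC against progenitors and its 15-base probe 0.12. For IgE_BMMC against BMMC they gave -1.21 and -1.36, and for IgE_BMMC against progenitors -0.47 and -1.24. MiR-487b was well above background in BMMC with its 18-base probe and on 0 arrays with its 17-base probe.

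**Figure D3:**
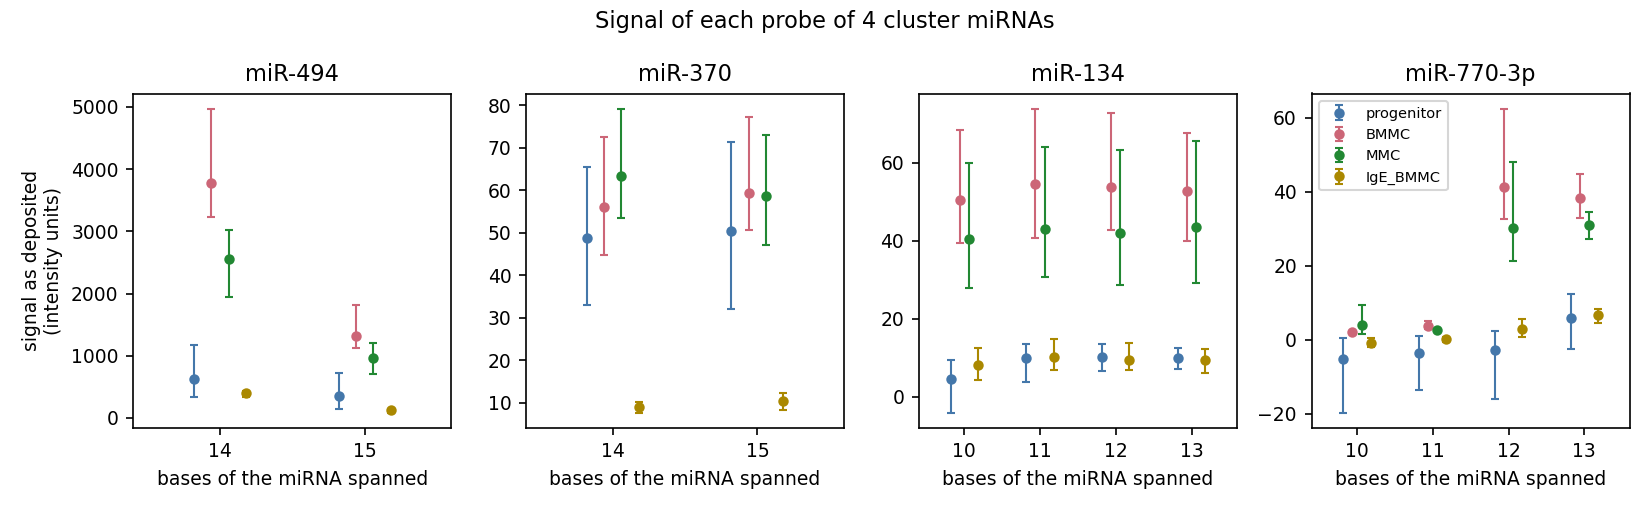
Deposited signal (intensity units) of each probe of 4 members against the number of bases it spans; points are group means and bars run from the lowest to the highest of the 4 arrays. The miR-770-3p probes of 10 and 11 bases have group means of at most 3.925 units, and each of the 4 probes of miR-134 places BMMC and MMC above the other groups.

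The 6 members detected steadily also differed from the rest in the medians of base composition and probe length, while the ranges overlapped. The 5 of them with a sequence had 45.5% to 72.7% G and C, with a median of 65.2%, against a median of 47.4% and a range of 23.8% to 72.7% over the 61 other members with one. MiR-494, at 45.5%, lay under the median of those others. The shortest probe spanned a median of 12 bases (10 to 17) in the 6 and 17 (10 to 21) in the other 67. Of the 29 members whose shortest probe spans at most 14 bases, 5 are among the 6. These values are a description, and the part of composition or probe length in which members were detected was not tested.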

How the data were processed

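Per the file headers, the authors read 16 one-colour arrays with Agilent Feature Extraction 9.5.1.1; the deposited spot values are intensity values after background subtraction, with no scaling between arrays. Per the labels' protocols, each array took 100 ng of RNA (integrity number over 8). The authors' deposited value table is in log2 units with 599 entries; rebuilt from the deposited total signal, it differed by at most 0.0155 log2, its array medians run from -0.981 to 0.818, and it served as an alternative.

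Probe values are means over spots, leaving out control and outlier spots, and each array was divided by the 75th percentile of the 205 probes well above background on all 16 arrays (most of a probe's spots so marked), set to a geometric mean of 1. After a floor of 11.8, log2 was taken, and each miRNA was represented by its brightest probe. The filter kept 217 miRNAs lit on 3 or more arrays in some group; 7 of these were at the floor throughout. limma 3.58.1 in R 4.3.3 was fitted over all 16 arrays (12 residual and 0.876 prior degrees of freedom), and an adjusted p under 0.05 was called. Detection is the software's own call for the miRNA. Tested on simulated data for BMMC against progenitors with 217 miRNAs, the fit called 29 of 30 changed by log2 1, 30 of 30 by log2 2 and 6 of 157 unchanged. The simulated noise was not floored, the arrays did not differ in brightness, and as many changes went up as down. The simulation therefore says nothing about the scaling or the floor. The number of arrays limits the precision. Arrays of each group lie 2 on each of 2 slides; a test between slides called 0 of 217 (9 at an unadjusted p under 0.05). Array and RefSeq names differ in part, so arms were matched by their spacing along the locus from miR-770-3p, within 3 bases: 64 others were exact and 1 was off by 2.

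The members, their positions, the marker lists (haematopoietic, stromal, neuronal, erythroid, lymphoid and other imprinted loci) and the tests were chosen with earlier results of these data known. All members were described by position; those passing the filter are named with values per array, those detected on at least 1 array with their counts, others only as neighbours or at the window's edges. Alternatives were the scaling, background correction, value per miRNA, source table, filter, floor, slide or replicate block, and leaving out each array. The background correction alternative was normexp with an offset of 50 units, added before the scaling.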

Additional observations from a re-analysis of the deposited data

Results flagged for a closer look

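The number of cluster members detected passed Dixon's test on 2 arrays. In both groups the other 3 arrays are tied, so that any departure passes and the test says nothing about its size. Progenitor replicate 4 had 11 members detected against 4 on each of the others, and IgE_BMMC replicate 3 had 3 against 4 on each of the others. The latter is a difference of 1 member. Dixon's test was applied to 20 groups of 4 arrays, and chance flags about 1 in 20. Progenitor replicate 4 is also the array with the widest negative controls (standard deviation 5.53 units), and 7 members were detected there alone; the part of that noise was not tested.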

How the results depend on the processing

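MiR-494 in IgE_BMMC against BMMC and miR-370 in IgE_BMMC against progenitors kept direction and call under all 28 alternatives run; other member results moved with the scaling, and the cause was not tested. Members called in BMMC against progenitors (2) became 3 with the 75th percentile of all probes (3 higher) or a floor of 1 (1 higher, 2 lower). They became 4 with quantile normalization, no scaling (4 higher), the total signal or the authors' value table. They became 5 with normexp (1 higher, 4 lower) and 1 with the mean of all probes or no filter. In MMC against BMMC (2) they became 0 with the 75th percentile of all probes (none of the 5 members at an adjusted p under 0.05 in limma) and 1 with normexp, the total signal, the authors' table or a floor of 1. In IgE_BMMC against BMMC (1) they became 4 with the percentile of all probes, 3 with quantile normalization or the total signal, 5 with no scaling or normexp and 2 with the mean of all probes. In IgE_BMMC against progenitors (1) they became 3 with the percentile of all probes and 2 with quantile normalization, the mean of all probes or the authors' table. Leaving out 1 array gave 1 to 2, 2 to 3, 1 to 2 and 1 to 2 called members in the 4 comparisons, and differences in members detected per array of 0.667 to 3, -2.83 to -2.17, -3.58 to -2.92 and -2.58 to -0.25. Calls were gained without progenitor replicate 1 (miR-494, MMC against BMMC, adjusted p = 0.0408), progenitor replicate 2 (miR-494, IgE_BMMC against progenitors, 0.0209), progenitor replicate 3 (miR-770-3p, BMMC against progenitors, 0.00146, and IgE_BMMC against BMMC, 0.0028) and MMC replicate 3 (miR-134, MMC against BMMC, 0.0456). The call of miR-770-3p in MMC against BMMC was lost with normexp (0), the total signal (0.53), the authors' table (0.53) and a floor of 1 (0.70, adjusted p = 0.513). Directions turned with no scaling for miR-370 (0.30) in BMMC against progenitors and, in MMC against BMMC, for miR-370 (-0.018), miR-494 (-0.56), miR-134 (-0.37) and miR-770-3p (-0.31). They turned with normexp for miR-770-3p (-0.47) and miR-134 (-0.56) in BMMC against progenitors. With normexp they also turned for miR-770-3p (0.37), miR-370 (0.46) and miR-134 (0.43) in IgE_BMMC against BMMC. The part of the normexp offset of 50 units in these turns was not tested. In IgE_BMMC against progenitors they turned for miR-494 with the percentile of all probes (0.85) and the authors' table (0.29), and for miR-134 with the percentile of all probes (0.73), quantile normalization (0.58), the total signal (0.37), the authors' table (1.22), a floor of 1 (0.16) and without IgE_BMMC replicate 4 (0.0059). Of all calls in BMMC against progenitors 31.9% were higher, against 79.5% with the percentile of all probes, 60.7% with quantile normalization, 85.9% with no scaling and 12.5% with normexp, where the median log2 difference of all miRNAs tested was -0.30, 0.72, 0.064, 1.38 and -0.59. The same shares in the same order were 81.4%, 36.4%, 36.4%, 0% and 93.4% for MMC against BMMC, 71.7%, 20%, 51%, 0.51% and 97.1% for IgE_BMMC against BMMC and 35.7%, 76.3%, 55.5%, 32.5% and 30% for IgE_BMMC against progenitors. Same-numbered arrays correlated between -0.407 and 0.432 in their deviations from the group means. With 4 arrays per group this cannot tell whether same-numbered samples share an animal or culture, which the labels do not state. With the replicate block 2 members in place of 1 were called in IgE_BMMC against BMMC (miR-370, limma adjusted p = 0.0373). A permutation within numbers can give no p under 0.125. Dim members are limited by signal over background: the lowest scaled signal well above background was 58.3 units on progenitor replicate 4 and 3.03 to 20.2 on the other arrays. The single-probe values of a member were added after seeing the data.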

Other observations

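Of 9 miRNAs from other imprinted loci, 3 were detected on at least 3 arrays of the group in progenitors, 2 each in BMMC and MMC and 1 in IgE_BMMC, and miR-335-5p, miR-335-3p, miR-296-3p, miR-483* and miR-675-5p were detected on 0 arrays. MiR-483, which lies in an intron of Igf2, was lower in BMMC than in progenitors (log2 difference -0.91, SE 0.19, limma adjusted p = 0.000678), higher in MMC than in BMMC (0.78, SE 0.19, limma adjusted p = 0.00811) and lower in IgE_BMMC than in progenitors (-1.22, SE 0.19, limma adjusted p = 4.27e-05). In IgE_BMMC against BMMC it did not pass (-0.30, SE 0.19, limma adjusted p = 0.311). MiR-296-5p was lower in BMMC than in progenitors (-0.66, SE 0.14, limma adjusted p = 0.000907). Its log2 differences for MMC and IgE_BMMC against BMMC were exactly 0, as arises when all arrays of both groups lie at the floor. It was detected on 0 IgE_BMMC arrays. These values of 0 therefore do not show an unchanged level, and the size of its difference from progenitors depends on the floor. Of all miRNAs tested, 45.2% were called lower in BMMC than in progenitors, 16.9% higher in MMC than in BMMC and 51.1% lower in IgE_BMMC than in progenitors.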
